A study of Homo sapiens with 4 samples.

Results

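Decoy receptor 3 is a secreted member of the tumour necrosis factor (TNF) receptor superfamily, encoded by TNFRSF6B (ENSG00000243509). It is described here with RTEL1, the helicase gene next to it, and with 7 membrane receptors of the same superfamily: FAS, TNFRSF10A, TNFRSF10B, TNFRSF1A, TNFRSF21, TNFRSF12A and LTBR. These are 9 of the 58174 genes in the deposited table, and all 9 were found by gene name. The set was chosen by measured values, because TNFRSF6B had by far the lowest siCDH3 to siCTR ratio in both lines. Its values in that contrast are therefore given as a description, and no test is made of them.

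RNA was sequenced from 4 cultures of human lung cancer cell lines, with 1 library for each. The groups were H1299 with siCDH3, H1299 with siCTR, HCC827 with siCDH3 and HCC827 with siCTR, each harvested 48 h after siRNA transfection. H1299 cells derive from a lymph node deposit of a non-small cell carcinoma. HCC827 cells derive from an adenocarcinoma and carry an activating deletion in EGFR; siCDH3 is an siRNA against P-cadherin (CDH3) and siCTR a control siRNA. The comparison asks how expression differs after transient CDH3 knockdown. With 1 library per group, no difference below has a replicate check and no p-value is given. In bulk RNA, fewer cells expressing a gene and less RNA per cell cannot be told apart.

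TNF receptors are bound by trimeric ligands of the TNF family. Receptors with a cytoplasmic death domain, such as FAS, the TRAIL receptors TNFRSF10A and TNFRSF10B, and TNFRSF1A, can recruit FADD or TRADD and activate caspase 8. Receptors without one, such as LTBR and TNFRSF12A, signal through TRAF adaptors to NF-kB. Decoy receptor 3 has no membrane anchor. It is released from cells and binds FAS ligand (FASLG), LIGHT (TNFSF14) and TL1A (TNFSF15), which keeps these ligands from their signalling receptors. Its gene is known to be amplified or overexpressed in lung and colon tumours.

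TNFRSF6B lies on the forward strand of chromosome 20, at chr20:63696651-63698684 in GRCh38 (GENCODE release 29), and has 1 annotated transcript of 1141 bases with 3 exons. RTEL1 ends 398 bases before it on the same strand. A further annotated gene, RTEL1-TNFRSF6B (ENSG00000026036), runs through both and has 3 transcripts of 4824, 5751 and 5843 bases. None of these 3 is annotated as coding for a protein: one is a target of nonsense-mediated decay and the others retain introns. All 1141 exonic bases of TNFRSF6B lie inside exons of RTEL1-TNFRSF6B. The transcript RTEL1-TNFRSF6B-201 holds the TNFRSF6B transcript whole, so that 1111 of its 1111 stretches of 31 bases occur in the read-through gene and 0 occur in RTEL1.

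The bases around the coding start are shown because they are where the transcripts part or stay alike. Capitals mark 30 bases from chr20:63696760-63696789 (GRCh38, forward strand), where the exon of the spliced read-through transcript begins, 109 bases into TNFRSF6B. Lower case gives the 20 bases before them in each transcript.
TNFRSF6B-201: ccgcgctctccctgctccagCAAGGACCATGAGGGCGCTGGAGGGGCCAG
RTEL1-TNFRSF6B-201: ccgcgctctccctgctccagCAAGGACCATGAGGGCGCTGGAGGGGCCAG
RTEL1-TNFRSF6B-202: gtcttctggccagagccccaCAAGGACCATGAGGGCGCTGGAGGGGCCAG
The first and second lines are the same letter for letter, and the third differs only before the capitals, where it comes from an exon shared with RTEL1. A read from the capitals onward is held by both genes, and no stretch of 31 bases in TNFRSF6B is its own.

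**Figure D1:**
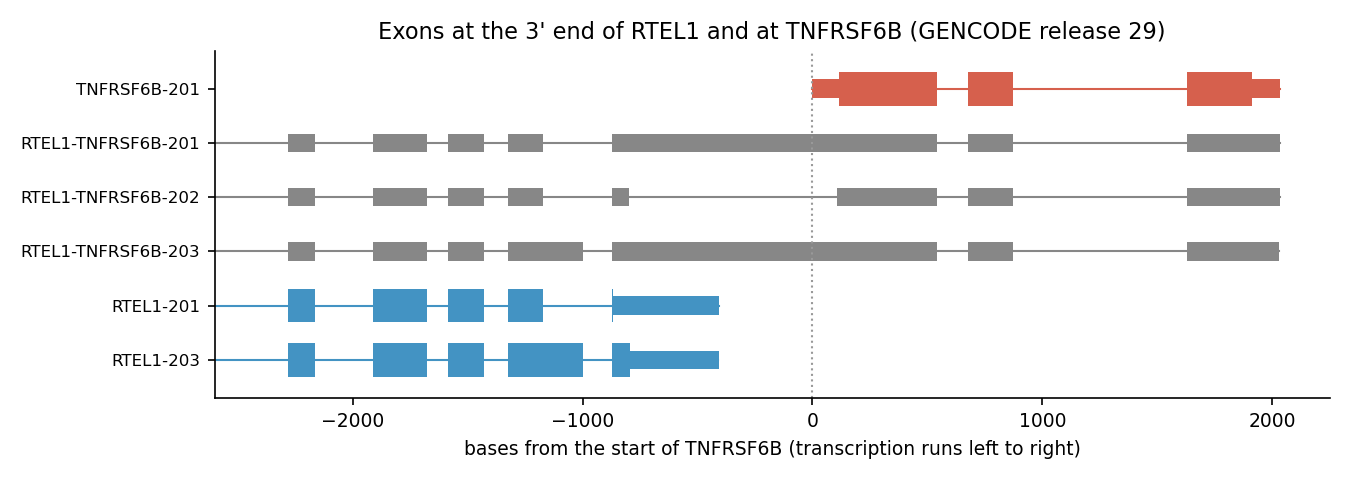
Exons of TNFRSF6B (red), the read-through gene RTEL1-TNFRSF6B (grey) and 2 RTEL1 transcripts (blue), against distance in bases from the TNFRSF6B start; tall boxes are coding, low boxes non-coding, and lines are introns. Every red box lies above a grey one, and none above a blue one.

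The start regions that RefSeq lists for TNFRSF6B and for the read-through gene are shown; RefSeq lists the read-through window for RTEL1 too. In GENCODE release 29 the read-through transcripts begin further downstream, at positions 63659300, 63686371 and 63688170, so the annotations differ there. They are given from 250 bases before to 50 bases after each start, on the forward strand, from RefSeq (GRCh38.p14); a window was found for 6 of the 9 genes. Capitals mark matches to GGGCGG and to ATATAT, searched on both strands. The TNFRSF6B window is chr20:63696402-63696701, and the window listed for both RTEL1 and the read-through gene is chr20:63657560-63657859.
TNFRSF6B: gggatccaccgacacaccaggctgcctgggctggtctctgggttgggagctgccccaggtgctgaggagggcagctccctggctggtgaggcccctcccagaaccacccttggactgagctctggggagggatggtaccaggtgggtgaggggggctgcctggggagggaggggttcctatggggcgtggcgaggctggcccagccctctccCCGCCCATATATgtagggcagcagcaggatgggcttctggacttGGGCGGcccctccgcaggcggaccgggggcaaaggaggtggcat
RTEL1 and RTEL1-TNFRSF6B: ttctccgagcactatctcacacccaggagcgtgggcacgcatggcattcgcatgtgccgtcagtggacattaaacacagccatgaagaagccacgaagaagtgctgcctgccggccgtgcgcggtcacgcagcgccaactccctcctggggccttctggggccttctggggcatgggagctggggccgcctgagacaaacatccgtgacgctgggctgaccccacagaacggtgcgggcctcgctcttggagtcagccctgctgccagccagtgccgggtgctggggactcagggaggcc
TNFRSF6B has 2 matches to GGGCGG, one of which directly adjoins its single ATATAT, and the other window has 0 of either. Both printed windows have 0 matches to the TATA box letters TATAAA, which 11.5% of all windows hold. Both also have 0 matches to the E-box letters CACGTG, held by 7.26%, and to a strict form of the NF-kB motif, held by 1.91%. A loose form of the NF-kB motif, held by 58.7%, has 10 matches in the TNFRSF6B window and 2 in the other; these too were searched on both strands. A further RTEL1 window, chr20:63658062-63658361, has 2 matches to GGGCGG. Of 35116 windows of this length, 45.0% hold GGGCGG and 4.10% hold ATATAT. The TNFRSF6B window holds 8 CG pairs and the RTEL1 window 19, against a median of 14 over all windows. These are counts of letters, not of bound sites.

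TNFRSF6B was listed at 0.00849 TPM in H1299 siCDH3, against 80.8 TPM in H1299 siCTR. In HCC827 it was listed at 0.00493 TPM in siCDH3, against 107.7 TPM in siCTR. TPM is a length-scaled level within a library, with a fixed total over all genes. Both control libraries were high and both siCDH3 libraries were close to 0. The log2 ratio of TPM + 1, siCDH3 over siCTR, was -6.34 in H1299 and -6.76 in HCC827; with values this near 0 its size is set by the pseudocount, and it was -9.54 and -10.00 with 0.1 added and -4.10 and -4.49 with 5 added. No gene had a lower ratio among 11622 tested in H1299 or 11043 tested in HCC827, where tested genes are those that reach 5 TPM in 1 or both libraries of the line.

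The choice of TNFRSF6B rests on this difference, so the next count describes the same values again. Of 9441 genes with at least 5 TPM in both siCTR libraries, 1 was under 0.1 TPM in both siCDH3 libraries, and that gene was TNFRSF6B. In the other direction, 0 genes were under 0.1 TPM in both siCTR libraries and at least 5 TPM in both siCDH3 libraries. Values above 0 but under 0.01 TPM were counted over all 58174 genes, with no filter on level. They were given to 406 genes in H1299 siCDH3, 466 in H1299 siCTR, 517 in HCC827 siCDH3 and 570 in HCC827 siCTR. Such small values were thus not particular to TNFRSF6B. How many of these genes were high in another library was not counted.

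The targeted gene, CDH3, had 78.8 TPM in HCC827 siCDH3 and 173 TPM in HCC827 siCTR, a log2 ratio of -1.12. In H1299 it had 0.169 TPM in siCDH3 and 1.21 TPM in siCTR, both under the filter of 5 TPM. TNFRSF6B was thus listed near 0 in a line with abundant CDH3 and in a line with little. In HCC827, the siCDH3 level of CDH3 was 45.6% of its siCTR level, and that of TNFRSF6B 0.00458%. In H1299 the siCDH3 level of CDH3, near the floor, was 14.0% of its siCTR level, and that of TNFRSF6B 0.0105%. Whether the TNFRSF6B values follow from CDH3 knockdown was not tested.

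The read-through gene went the other way. RTEL1-TNFRSF6B had 15.2 TPM in H1299 siCDH3 and 7.08 TPM in H1299 siCTR, a log2 ratio of 1.003. In HCC827 it had 11.9 TPM in siCDH3 and 4.56 TPM in siCTR, a log2 ratio of 1.21. Both ratios are past 2-fold, that in H1299 only just, a size which 0.878% of tested genes reached upward in H1299 and 1.01% in HCC827. In HCC827 the gene passed the filter of 5 TPM only through the siCDH3 library, where it was the higher. Neither ratio was computed with another pseudocount, and a larger one would make both smaller. RTEL1, which encodes a helicase that unwinds telomeric and other DNA structures, had 10.05 TPM in H1299 siCDH3 and 8.45 TPM in H1299 siCTR, a log2 ratio of 0.23. Its HCC827 values, 3.95 TPM in siCDH3 and 3.43 TPM in siCTR, were under the filter, so that 8 of the 9 genes were tested in that line.

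The TPM by which the read-through gene was higher was much smaller than that by which TNFRSF6B was lower. TNFRSF6B and RTEL1-TNFRSF6B together had 15.2 TPM in H1299 siCDH3 and 87.9 TPM in H1299 siCTR, and 11.9 TPM in HCC827 siCDH3 and 112.3 TPM in HCC827 siCTR. The log2 ratio of this sum was -2.45 in H1299 and -3.14 in HCC827, smaller in size than that of TNFRSF6B alone. TNFRSF6B made up 0.0558% of the sum in H1299 siCDH3 and 91.9% in H1299 siCTR, and 0.0416% in HCC827 siCDH3 and 95.9% in HCC827 siCTR.

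TPM divides by length, and the read-through transcripts are several times longer than TNFRSF6B, so the same reads count for less TPM there. Weighting each gene's TPM by its transcript length gives a quantity proportional to reads within a library. With the 4824-base read-through transcript, the weighted sum (TPM times kb) was 73.4 in H1299 siCDH3 and 126.3 in H1299 siCTR, and 57.2 in HCC827 siCDH3 and 144.9 in HCC827 siCTR. The siCDH3 sum was 58.1% of the siCTR sum in H1299 and 39.5% in HCC827. With the 5843-base transcript it was 66.5% in H1299 and 46.4% in HCC827. The log2 ratio was then between -0.78 and -0.58 in H1299, inside 2-fold, and between -1.32 and -1.10 in HCC827. The factor that turns this quantity into reads can differ between libraries and was not computed. These percentages and log2 ratios are therefore ratios of weighted TPM, not of reads. The lengths are of single annotated transcripts, and the gene models behind the deposited values are not given. This weighting was chosen after the values were seen. The weighted sum was lower in siCDH3 in both lines under each of the 3 lengths, but how the deposited values divide reads between the genes was not tested.

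**Figure D2:**
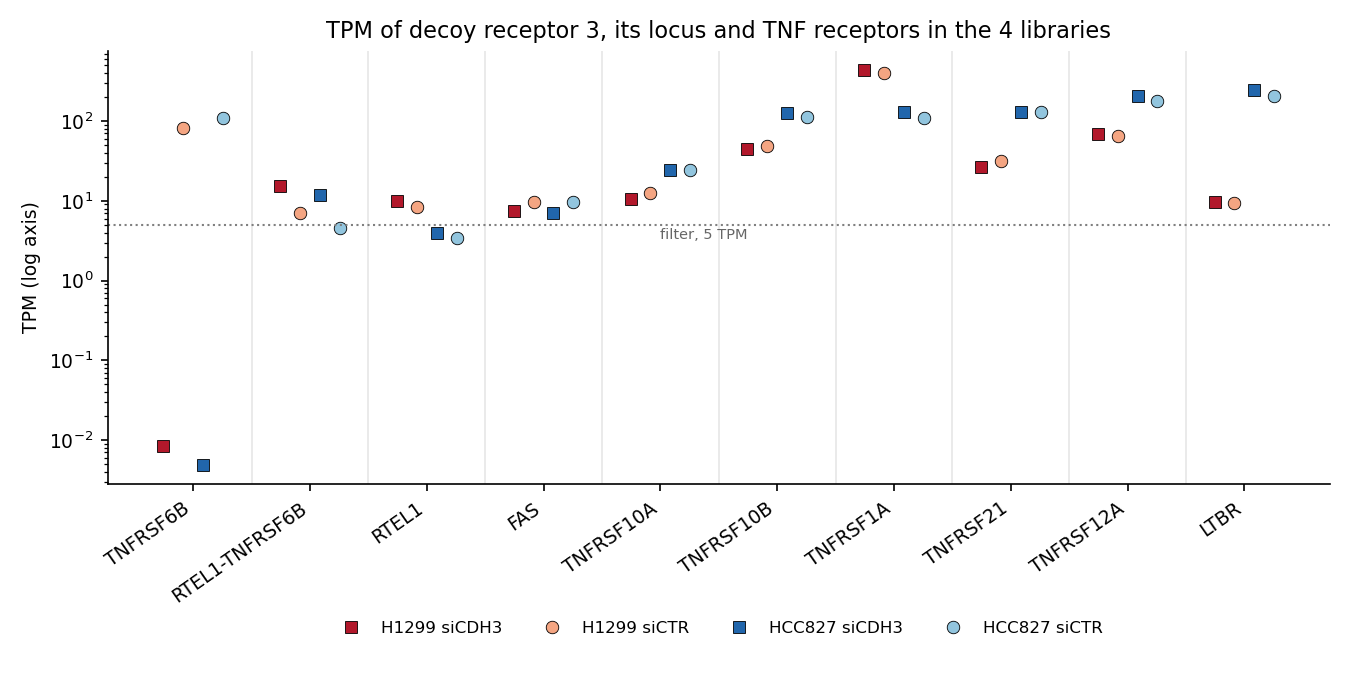
TPM on a log axis (vertical) for TNFRSF6B, its locus and the 7 membrane receptors (horizontal), with 1 point per library: squares are siCDH3 and circles siCTR, red H1299 and blue HCC827. The TNFRSF6B squares stand at 0.00849 and 0.00493 TPM and its circles at 80.8 and 107.7 TPM, while for each membrane receptor the square and circle of a line lie close together.

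**Figure D3:**
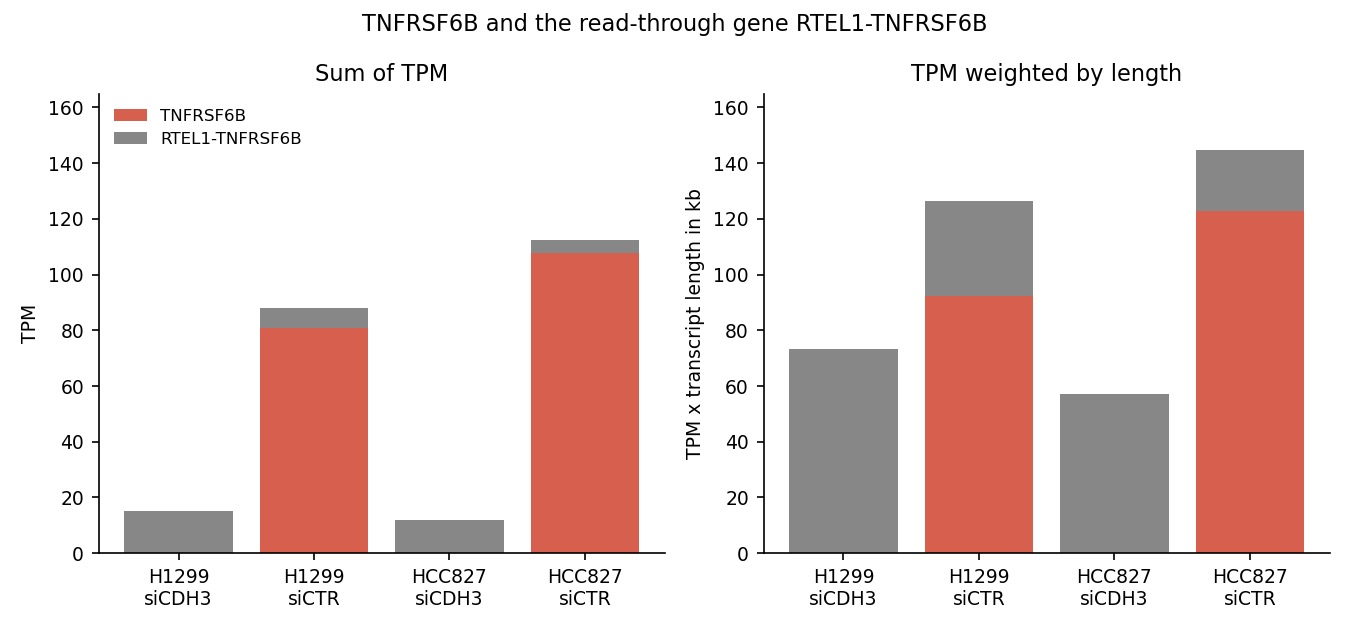
Stacked bars of TNFRSF6B (red) and RTEL1-TNFRSF6B (grey) in each library, as TPM (left) and as TPM times transcript length in kb with the 4824-base read-through transcript (right). The siCDH3 bars are almost wholly grey. On the left they reach 17.3% of the siCTR bar of the same line in H1299 and 10.6% in HCC827. On the right they reach 58.1% in H1299 and 39.5% in HCC827, which are not ratios of reads.

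Genes whose exons lie within another gene passed 2-fold more often in these libraries. Of genes with at least 99% of exonic bases inside exons of other genes on the same strand, as TNFRSF6B has, 24 of 94 (25.5%) were past 2-fold in H1299 and 21 of 78 (26.9%) in HCC827. In H1299, 14 of these 24 were lower and 10 higher in siCDH3; in HCC827, 14 were lower and 7 higher. Of genes with under 50% in common, 2.14% were past 2-fold in H1299 and 1.51% in HCC827. TNFRSF6B, chosen for its ratio, is itself counted in the class of at least 99%. The classes were not matched for expression level, and the gene models behind the deposited values are not given. Whether shared exons account for the TNFRSF6B values was not tested. RTEL1 has 70.2% of its exonic bases inside the read-through gene. The 7 membrane receptors have 0% on the same strand, and between 0% and 16.6% opposite exons of a gene on the other strand; the strand setting of the quantification is not given in the sources used here.

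**Figure D4:**
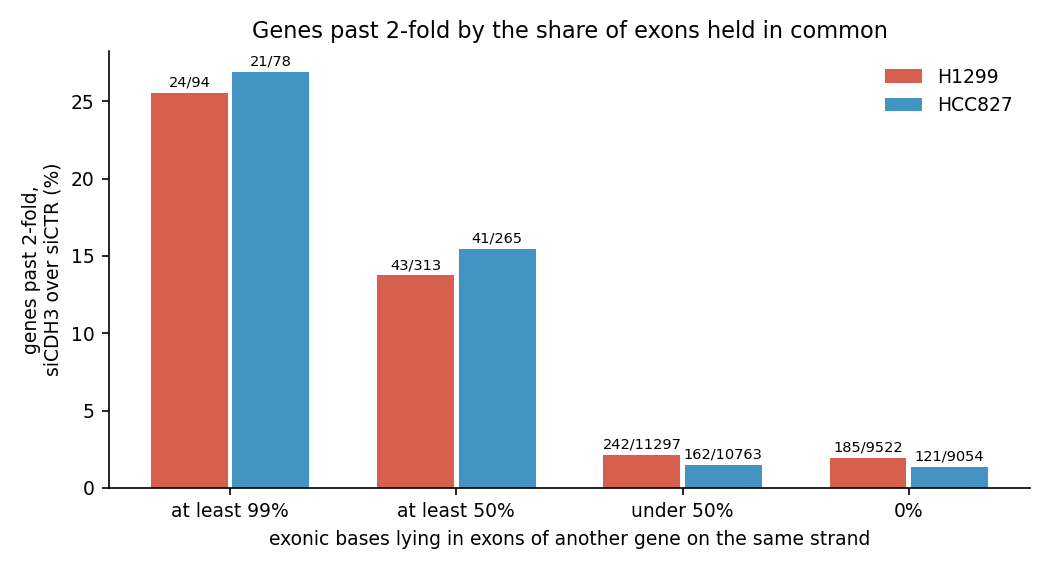
Percent of tested genes at least 2-fold higher or lower in siCDH3 than in siCTR (vertical), by the share of exonic bases inside exons of another gene on the same strand (horizontal; the class of at least 99% is part of that of at least 50%, and 0% is part of that under 50%), with counts above the bars. The bars stand at 25.5% and 26.9% for the class that holds TNFRSF6B and at 2.14% and 1.51% for genes under 50%. The classes were not matched for expression level.

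The 5 genes nearest to TNFRSF6B in pattern, by Euclidean distance between 4 centred log2(TPM + 1) values over 12941 genes, were AC118553.2, AL136295.4, MXD1, JPT2 and ZNF607, at distances of 3.51 to 4.74. AC118553.2 had 1.77 TPM in H1299 siCDH3 and 16.1 in H1299 siCTR, and 0.875 TPM in HCC827 siCDH3 and 20.2 in HCC827 siCTR. AL136295.4 had 1.27 and 15.1 TPM in H1299 siCDH3 and siCTR, and 1.53 and 12.5 TPM in HCC827 siCDH3 and siCTR. These first 2 share 63.5% and 95.9% of their exonic bases with other genes of the same strand. MXD1, a repressor that pairs with MAX, shares 3.73%, JPT2 3.13% and ZNF607 12.5%. All 5 were at least 2-fold lower in siCDH3 in both lines. ZNF607 was under 5 TPM in both HCC827 libraries, at 0.989 TPM in siCDH3 and 4.53 TPM in siCTR. Its HCC827 log2 ratio of -1.48 is thus that of a gene under the filter. Over all tested genes, 1.58% were at least 2-fold lower in H1299 and 0.833% in HCC827. The 5 were picked on these same values, so their direction follows from the choice. A gene with 4 equal values would lie at a distance of 6.56 from TNFRSF6B. With 4 values per gene, likeness of pattern is a description only.

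The nearest neighbours on chromosome 20 did not share the pattern of TNFRSF6B. Of 9 neighbouring genes listed, 1 was at least 2-fold lower in H1299 (1.58% over all genes) and 1 was at least 2-fold higher in HCC827 (1.01% over all genes). TPD52L2, a tumour protein D52 family gene, had 46.5 TPM in H1299 siCDH3 and 103.7 TPM in H1299 siCTR, a log2 ratio of -1.14, but 76.3 TPM in HCC827 siCDH3 and 85.7 TPM in HCC827 siCTR. STMN3, a microtubule-destabilising stathmin, had 45.5 TPM in HCC827 siCDH3 and 21.6 TPM in HCC827 siCTR, a log2 ratio of 1.04, and 175.9 TPM in H1299 siCDH3 and 125.6 TPM in H1299 siCTR. ARFRP1, whose exons overlap TNFRSF6B on the opposite strand, had 21.2 TPM in H1299 siCDH3 and 23.9 TPM in H1299 siCTR, and 11.4 TPM in HCC827 siCDH3 and 10.3 TPM in HCC827 siCTR. The median log2 ratio of the 9 was -0.04 in H1299 and 0.05 in HCC827, against -0.11 and 0.03 over all genes.

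Among the 9 genes described, 1 of 9 tested in H1299 was at least 2-fold lower and 0 were higher; over all genes 1.58% were lower. In HCC827, 1 of 8 was at least 2-fold lower and 0 were higher; over all genes 0.833% were lower. TNFRSF6B was that gene in both lines. The set was chosen around it, so these counts show nothing beyond its own values. The 7 membrane receptors had log2 ratios between -0.34 and 0.11 in H1299, where 95% of all genes lay between -0.86 and 0.66. In HCC827 they lay between -0.38 and 0.24, where 95% of all genes lay between -0.59 and 0.67.

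FAS, the death receptor for FAS ligand, had 7.37 TPM in H1299 siCDH3 and 9.61 TPM in H1299 siCTR, and 7.08 TPM in HCC827 siCDH3 and 9.53 TPM in HCC827 siCTR. Its log2 ratio, -0.34 in H1299 and -0.38 in HCC827, was the lowest of the 7 membrane receptors in each line. TNFRSF10A and TNFRSF21 were also lower in siCDH3 in both lines, each at -0.25 in H1299 and -0.01 in HCC827. Of all tested genes, 5.53% had a lower ratio than FAS in HCC827 and 21.2% in H1299. Neither FAS ratio reached 2-fold.

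TNFRSF10A, a TRAIL receptor with a death domain, had 10.5 TPM in H1299 siCDH3 and 12.7 TPM in H1299 siCTR, and 24.1 TPM in HCC827 siCDH3 and 24.3 TPM in HCC827 siCTR. TNFRSF10B, the other TRAIL death receptor, had 44.1 TPM in H1299 siCDH3 and 49.0 TPM in H1299 siCTR, and 127.6 TPM in HCC827 siCDH3 and 111.2 TPM in HCC827 siCTR. The siCDH3 library was the lower one for TNFRSF10B in H1299 and the higher one in HCC827, with log2 ratios of -0.15 and 0.20 that stayed inside 2-fold. TNFRSF1A, the main receptor for TNF, had 430.6 TPM in H1299 siCDH3 and 399.8 TPM in H1299 siCTR, and 129.2 TPM in HCC827 siCDH3 and 110.6 TPM in HCC827 siCTR.

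TNFRSF21 (death receptor 6) had 26.6 TPM in H1299 siCDH3 and 31.8 TPM in H1299 siCTR, and 129.5 TPM in HCC827 siCDH3 and 130.3 TPM in HCC827 siCTR. TNFRSF12A, the receptor for TWEAK, had 68.9 TPM in H1299 siCDH3 and 64.9 TPM in H1299 siCTR, and 208.9 TPM in HCC827 siCDH3 and 176.9 TPM in HCC827 siCTR. LTBR, the lymphotoxin beta receptor, which also binds LIGHT, had 9.73 TPM in H1299 siCDH3 and 9.34 TPM in H1299 siCTR, and 244.3 TPM in HCC827 siCDH3 and 208.6 TPM in HCC827 siCTR. For TNFRSF1A, TNFRSF12A and LTBR the siCDH3 library was the higher one in both lines, with log2 ratios of 0.05 to 0.11 in H1299 and 0.22 to 0.24 in HCC827.

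For 6 of the 7 membrane receptors, all but FAS, the log2 ratio between the lines was larger in size than that between the siRNAs in either line. The share of all genes that meet this was not counted, so whether it is particular to these receptors was not tested. Over all genes too, 2-fold differences were more common between the lines than between the siRNAs. Between the siRNAs, 1.58% of all tested genes were at least 2-fold lower and 0.878% higher in H1299. In HCC827 these shares were 0.833% and 1.01%. In the siCTR libraries, HCC827 over H1299, 4 of the 9 genes were past 2-fold upward and 2 downward; over 12601 genes, 13.5% were higher and 27.8% lower. LTBR was 22.3-fold higher in HCC827, TNFRSF21 4.09-fold, TNFRSF12A 2.73-fold and TNFRSF10B 2.27-fold. TNFRSF1A was 3.62-fold higher in H1299, and RTEL1 2.46-fold. FAS was nearly level, at 9.53 TPM in HCC827 siCTR and 9.61 TPM in H1299 siCTR. TNFRSF6B was at 107.7 TPM in HCC827 siCTR and 80.8 TPM in H1299 siCTR, a log2 ratio of 0.41.

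In the siCDH3 libraries, RTEL1 and the membrane receptors other than FAS, which was nearly level, were each higher in the same line as in siCTR; TNFRSF6B was near 0 in both. LTBR was 25.1-fold higher in HCC827 there, TNFRSF21 4.86-fold, TNFRSF12A 3.03-fold, TNFRSF10B 2.89-fold and TNFRSF10A 2.29-fold, and TNFRSF1A was 3.33-fold higher in H1299. The median log2 ratio of all genes, HCC827 over H1299, was -0.39 in siCTR, and genes encoded by mitochondrial DNA held 36.2% of the HCC827 siCTR library's TPM, against 13.5% of the H1299 siCTR library's. Each library sums to a fixed total, so a larger mitochondrial share lowers all other TPM. With the median set to 0, RTEL1 moved inside 2-fold (-0.70), TNFRSF10A moved past it (1.27), and FAS was above the median of all genes (0.38).

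The order of receptor levels within a library also differed. Of the 29 genes of the superfamily, 14 reached 5 TPM in H1299 siCDH3, 14 in H1299 siCTR, 14 in HCC827 siCDH3 and 15 in HCC827 siCTR. In H1299 siCTR the highest was TNFRSF1A, followed by TNFRSF6B, TNFRSF12A and TNFRSF10B. In HCC827 siCTR the highest was LTBR, followed by TNFRSF12A, TNFRSF21 and TNFRSF10B, and TNFRSF6B was number 6. With no replicates, neighbours in this order that lie close, such as TNFRSF10B at 111.2 TPM and TNFRSF1A at 110.6 TPM in HCC827 siCTR, cannot be ranked. In both siCDH3 libraries TNFRSF6B was below the filter, and the first 2 membrane receptors were the same genes as in the siCTR library of that line.

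Other receptors of the superfamily that passed the filter stayed inside 2-fold, as did most genes. Of 21 listed, 7 were tested in H1299 and 8 in HCC827, and 0 were past 2-fold in either. TNFRSF25 (death receptor 3), the signalling receptor for TL1A, had 38.4 TPM in H1299 siCDH3 and 28.4 TPM in H1299 siCTR, and 53.3 TPM in HCC827 siCDH3 and 42.3 TPM in HCC827 siCTR. TNFRSF14, a signalling receptor for LIGHT, was listed at 0 in H1299 siCDH3 and at 0.291 TPM in H1299 siCTR, and had 14.6 TPM in HCC827 siCDH3 and 12.5 TPM in HCC827 siCTR. The membrane-bound TRAIL decoy receptors TNFRSF10C and TNFRSF10D stayed within 2-fold: TNFRSF10C had a log2 ratio of -0.43 in H1299 and -0.22 in HCC827, and TNFRSF10D of -0.22 in H1299 and -0.02 in HCC827. TNFRSF10C shares 39.3% of its exonic bases with other genes. The median of the tested receptors was 0.27 in H1299 and 0.10 in HCC827.

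The ligands that decoy receptor 3 binds were low or not detected. FASLG was listed at 0 in all 4 libraries. TNFSF14 (LIGHT) was listed at 0 in both H1299 libraries, and had 0.238 TPM in HCC827 siCDH3 and 0.155 TPM in HCC827 siCTR. TNFSF15 (TL1A) was listed at 0 in H1299 siCDH3 and at 0.0101 TPM in H1299 siCTR, and had 5.44 TPM in HCC827 siCDH3 and 5.95 TPM in HCC827 siCTR. An entry of 0 in a TPM table does not show that a transcript is absent, since the read depth is unknown.

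Other ligands of the family were tested only in part. Of 18, 1 was tested in H1299 and 4 in HCC827, and 0 were past 2-fold. CD70 had 24.6 TPM in H1299 siCDH3 and 24.7 TPM in H1299 siCTR. TNFSF10, which encodes TRAIL, had 14.1 TPM in each HCC827 library, and 0.189 TPM in H1299 siCDH3 and 0.344 TPM in H1299 siCTR. TNFSF13 (APRIL) had 27.4 TPM in HCC827 siCDH3 and 31.1 TPM in HCC827 siCTR, with 55.5% of its exonic bases shared with the read-through gene TNFSF12-TNFSF13. TNF itself was at or below 0.992 TPM in all 4 libraries.

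Among death adaptors and caspases, 1 of 15 tested in H1299 was at least 2-fold lower (1.58% over all genes). In that line 0 were higher (0.878% over all genes). In HCC827, 0 of 16 tested were past 2-fold, where 98.2% of all genes were inside it. XIAP, which encodes an inhibitor of caspases, had 3.81 TPM in H1299 siCDH3 and 10.4 TPM in H1299 siCTR, a log2 ratio of -1.24, and 6.68 TPM in HCC827 siCDH3 and 6.01 TPM in HCC827 siCTR. CASP8, the caspase first activated by death receptors, had 15.8 TPM in H1299 siCDH3 and 18.5 TPM in H1299 siCTR, and 81.6 TPM in HCC827 siCDH3 and 81.7 TPM in HCC827 siCTR. FADD, the adaptor that binds it, had 15.8 TPM in H1299 siCDH3 and 17.3 TPM in H1299 siCTR, and 40.5 TPM in both HCC827 libraries. CFLAR (FLIP), which blocks caspase 8, had 13.5 TPM in H1299 siCDH3 and 17.6 TPM in H1299 siCTR, and 49.2 TPM in HCC827 siCDH3 and 35.2 TPM in HCC827 siCTR. The list median was -0.13 in H1299 and 0.11 in HCC827, against -0.11 and 0.03 over all genes.

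In the TRAF, IAP and kinase arm, 0 of 22 tested genes in H1299 and 0 of 20 in HCC827 were past 2-fold. The list medians were -0.09 in H1299 and 0.05 in HCC827. BIRC3, an inhibitor of apoptosis that NF-kB induces, had 12.2 TPM in H1299 siCDH3 and 12.8 TPM in H1299 siCTR, and 88.1 TPM in HCC827 siCDH3 and 79.7 TPM in HCC827 siCTR. TNFAIP3 (A20), which limits TNF signalling, had 5.15 TPM in H1299 siCDH3 and 8.50 TPM in H1299 siCTR, and 27.4 TPM in HCC827 siCDH3 and 20.2 TPM in HCC827 siCTR. Of 9 genes of receptor shedding and turnover, 9 were tested in each line and 0 were past 2-fold, a size that few of all genes reached. ADAM17, the protease that sheds TNF and its receptors, had ratios of -0.59 in H1299 and -0.03 in HCC827.

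**Figure D5:**
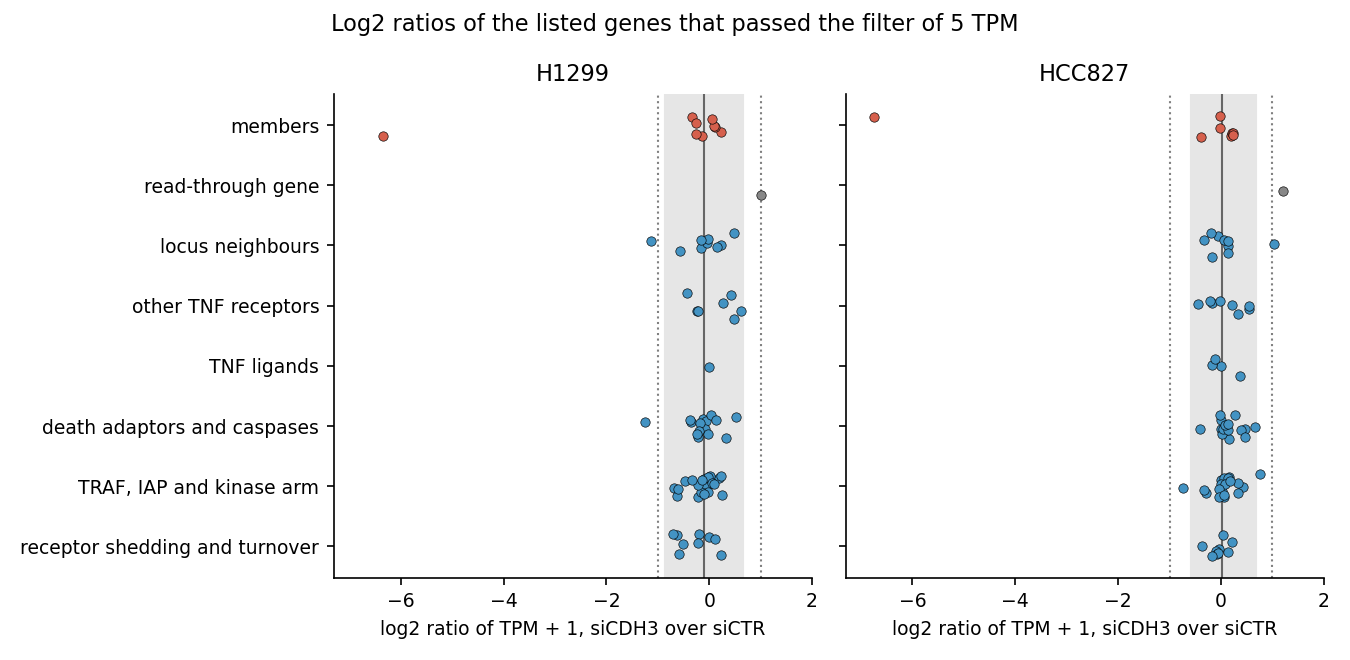
Log2 ratio of TPM + 1, siCDH3 over siCTR (horizontal), of each tested gene in 8 lists (vertical; the red row is the 9 genes described), in H1299 and HCC827; the grey band holds 95% of all tested genes, the solid line is their median and dotted lines mark 2-fold. TNFRSF6B stands alone at -6.34 and -6.76, and the other points outside the dotted lines are the read-through gene in both lines, TPD52L2 and XIAP in H1299 and STMN3 in HCC827.

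The libraries carried the markers of their lines. Of 8 epithelial markers, 8 reached 5 TPM in both HCC827 libraries and 3 in both H1299 libraries, where KRT7, KRT8 and KRT18 were present and EPCAM and CDH1 were under 1 TPM. Of 6 mesenchymal markers, 2 reached 5 TPM in the HCC827 libraries and 6 in the H1299 libraries. Of 8 hematopoietic markers 1, CD68, did so in each library, and PTPRC was at or below 0.0349 TPM; of 6 endothelial markers 0 did so. TPM columns summed to between 999859 and 999943.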

How the data were processed

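RNA sequencing of 4 libraries gave 1 table of 58174 genes. Its values are TPM as the authors deposited them, 1 column per library and not pooled; the labels tie every column to its own library, and 0 columns were left aside. The genome build is hg19, per the submitters' processing notes. The sources used here give no aligner, quantification tool, gene models, strand setting or siRNA sequence. Since TPM keeps no read depth, counting intervals were not computed, and how precise low values are is unknown.

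Ratios are log2 of TPM + 1 for genes with at least 5 TPM in at least 1 of the 2 libraries compared; the pseudocount of 1 understates changes of low genes. A 2-fold size rule (log2 of 1) stands in place of a test. Scripts ran in Python 3.11.15 with pandas 2.3.3 and were tested on simulated data. GENCODE release 29 (GRCh38) matched 57836 of 58174 identifiers and was used for exons, lengths and transcript sequences; all coordinates are GRCh38 and come from it or from RefSeq, not from the deposited table.

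The genes and lists were chosen with earlier results of these data known. Names in the text are the 9 genes, the read-through gene, CDH3, listed genes past 2-fold, the 5 nearest in pattern, and ligands or partners described by level. Alternatives were other pseudocounts, filters, size rules and scalings, and, added after the values were seen, a weighting by transcript length.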

Additional observations from a re-analysis of the deposited data

Results flagged for a closer look

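TRAF3, an adaptor that restrains the non-canonical NF-kB pathway, differed in direction between the lines. It had 12.6 TPM in H1299 siCDH3 and 20.8 TPM in H1299 siCTR, a log2 ratio of -0.68, and 15.0 TPM in HCC827 siCDH3 and 8.48 TPM in HCC827 siCTR, a log2 ratio of 0.76. It was the one listed gene past 1.5-fold in both lines in opposite directions, with a difference between the ratios, HCC827 minus H1299, of 1.43. It was picked from all the listed genes other than cell type markers. The share of all genes that meet this rule was not counted, so whether it is particular to TRAF3 was not tested. With the median of all genes set to 0, the H1299 ratio is -0.57 and no longer past 1.5-fold, and the HCC827 ratio is 0.73. Neither ratio was past 2-fold, each line has 1 library per group, and the difference was not tested.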

How the results depend on the processing

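The size of the TNFRSF6B ratio depends on the pseudocount: -9.54 in H1299 and -10.00 in HCC827 with 0.1, and -4.10 in H1299 and -4.49 in HCC827 with 5. It stayed past 2-fold and negative in both lines under these, a median ratio set to 0, TPM without mitochondrially encoded genes, and quantile normalization. The summed TPM of TNFRSF6B and RTEL1-TNFRSF6B did so too under these settings. Weighted by transcript length, which was added after the values were seen, the sum in H1299 came inside 2-fold, at -0.78, -0.60 and -0.58 for the 4824, 5751 and 5843-base read-through transcripts, because the longer transcript gives the read-through gene more weight. The weighted sums are not read counts, and their scale can differ between libraries. The count of 1 gene past 2-fold in each line held under every filter, size rule and scaling. That gene was TNFRSF6B, which was chosen for its ratio. The ratio lies so far past 2-fold that these settings could hardly bring it inside, so its holding adds no support. Between the lines, 6 of the 9 were past 2-fold, 5 to 7 in the other settings, and 1 under a 4-fold rule. Of 25 single-gene ratios of the set, 1 changed sign under some scaling, that of FAS between the lines (0.24 to 0.40 under 3 scalings, against -0.01). Between the lines RTEL1 came inside 2-fold in 4 settings (-0.84 to -0.67) and TNFRSF10A went past it in 3 (1.17 to 1.31); the cause was not tested. No paired analysis was possible because, within a line, each group has 1 library; a fit over both lines with the line as a block would leave 1 residual degree of freedom and was not run, since the genes were chosen on that contrast. The unknown depth limits every value under about 5 TPM.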
